A study of Mus musculus with 4 samples.

Results

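The machinery that decides whether a cell leaves G1, 10 genes in all of the 31557 gene rows in the count table, was followed in single nestin-GFP+ cells from the adult mouse dentate gyrus. The 10 genes were chosen by name: the D-type cyclins Ccnd1, Ccnd2 and Ccnd3, their kinases Cdk4 and Cdk6, the Cip/Kip inhibitors Cdkn1a, Cdkn1b and Cdkn1c, the pocket protein Rb1 and the cycling marker Mki67. Each had 1 row in the table. The names were chosen with earlier results of these data known.

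The antagomir group held 4 male nestin-GFP mice given Ant-132, an LNA- and cholesterol-modified oligonucleotide against miR-132, as 2 µl of a 0.33 nmol/ml solution in artificial cerebrospinal fluid, injected into the cerebral ventricle. These mice were injected at 2 months of age and analysed at 3 months of age. The scrambled group held 4 male nestin-GFP mice given a scrambled LNA oligonucleotide in the same fluid, whose dose and age the labels do not give separately. All mice of both groups carry the nestin-GFP reporter, so every value below is from cells with reporter fluorescence and none from the rest of the tissue. Each mouse gave 96 wells of a FACS sort, and single cells were read by Smart-seq2, which amplifies whole transcripts and counts reads, not molecules. The antagomir mice are numbered 2, 4, 6 and 8 and the scrambled mice 1, 3, 5 and 7, as in the deposited well table.

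D-type cyclins bind Cdk4 or Cdk6, and the active complex phosphorylates the retinoblastoma protein, which then releases E2F factors and lets a cell enter S phase. The Cip/Kip proteins p21 (Cdkn1a), p27 (Cdkn1b) and p57 (Cdkn1c) bind cyclin-kinase complexes and hold cells back, and Ki67 protein is made in cycling cells and lost in resting ones. In the adult dentate gyrus most radial glia-like stem cells rest, their progeny divide as they become neuroblasts, and Ccnd2 is the D cyclin on which adult neurogenesis in the mouse depends.

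The antagomir is directed at miR-132-3p, and its neighbour miR-212-3p carries the same seed. Their mature sequences are shown because the seed decides which of the 10 transcripts hold a complementary stretch. They are given 5′ to 3′ from RefSeq on build GRCm38.p6 with the seed, bases 2 to 8, in capitals.
mmu-miR-132-3p (chr11:75173723-75173744, + strand): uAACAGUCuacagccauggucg
mmu-miR-212-3p (chr11:75173443-75173464, + strand): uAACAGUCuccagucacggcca

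The 3′ UTRs of Ccnd2, Cdk6 and Rb1 each held 1 match to this seed, and those of the other 7 genes held none. The motifs searched on the transcript strand were GACTGTTA (8mer), GACTGTT and ACTGTTA (7mers, both of which lie within the 8mer). The longest annotated 3′ UTR of each gene was searched. The 3 windows, read from GENCODE transcripts with their GRCm38 positions, are given 5′ to 3′ on the strand of the gene with the match in capitals.
Ccnd2 (chr6:127129566-127129595, − strand, 3′ UTR, 7mer): agatgtattttACTGTTAtctgatggaggg
Cdk6 (chr5:3529249-3529278, + strand, 3′ UTR, 8mer): ttagcagtagaGACTGTTAcagggttgtcc
Rb1 (chr14:73196286-73196315, − strand, 3′ UTR, 8mer): atttacaagcaGACTGTTAactatagaagc
Of 21022 mouse genes with an annotated 3′ UTR, 17.8% held at least 1 of the 7mers and 2.35% held the 8mer, over UTRs with a median length of 961 bases. The 3′ UTR of Cdk6, at 10217 bases, is far longer than that median, and that of Ccnd2 is 5173 bases long. A match describes the letters and not a site in use.

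Of 768 wells, 716 had between 500 and 6000 detected genes and entered the comparisons, 353 wells of antagomir mice and 363 wells of scrambled mice. The median well held 650777 counts and 2778.5 genes, and the counts summed per mouse lay between 43996495 and 69191485. Cells were sorted into classes by markers with the 10 genes and the listed cell cycle genes left out of the clustering, so that class names do not rest on them. The classes were neuroblast-like (37 cells), endothelial-like (87), mural-like (82), radial glia-like or astrocyte-like (190, written RGL below), oligodendrocyte-like (303), fibroblast-like (12) and oligodendrocyte precursor-like (5). The marker list of each class was found in its own cells, from 11 of 13 mural markers and 13 of 14 neuroblast markers to 17 of 17 RGL markers in at least 25% of cells. Levels are in CPM, the counts summed over the cells of a class in a mouse and scaled to the same total, and are given as mean ± SD over the mice with at least 3 such cells. That left 7 mice for neuroblast-like cells and 8 mice for the 4 larger classes. A sum over cells cannot tell fewer expressing cells from less RNA per cell, so the share of cells with at least 10 counts is given beside it.

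By mean level across the 5 larger classes, Ccnd2, Cdk4, Cdk6, Cdkn1b and Mki67 were highest in neuroblast-like cells, Ccnd1, Ccnd3 and Cdkn1a in endothelial-like cells, Cdkn1c in mural-like cells and Rb1 in RGL cells. In edgeR's quasi-likelihood test with the mouse as a block and Benjamini-Hochberg adjustment over all genes and pairs, 21 of the 90 differences of the 9 tested genes over 10 pairs of classes passed an adjusted p of 0.05. That is 23.3%, against 18.9% of all 126670 gene-by-pair tests, so the share for these genes was near that of all genes. DESeq2 called 40 of the 90, against 32.5% of all tests. Cdk6 held 7 of the 21 calls, Ccnd2, Cdkn1a and Cdkn1c 4 each, and Ccnd3 and Cdk4 1 each. Ccnd1, Cdkn1b and Rb1 held none, and Mki67 had too few counts to enter the fit. Because the median gene itself differed by −0.62 to 1.58 log2 units between classes, each class difference below is printed relative to the median gene of its pair, while the adjusted p is that of the difference as fitted. Another scaling (RLE in place of TMM) moved those medians by up to 0.436.

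Each class enters 4 pairs, which makes 36 tests for the 9 genes. Neuroblast-like cells were higher in 7 of the 36 (19.4%) and lower in 1 (2.78%), against 7.33% higher and 9.53% lower over all genes in the same pairs. Endothelial-like cells were higher in 8 (22.2%) and lower in 4 (11.1%), against 6.32% higher and 14.1% lower over all genes. Mural-like cells were higher in 4 (11.1%) and lower in 2 (5.56%), against 6.21% and 12.2% over all genes. RGL cells were higher in 2 (5.56%) and lower in 4 (11.1%), against 14.6% and 4.43% over all genes. Oligodendrocyte-like cells were higher in 0 and lower in 10 (27.8%), against 12.8% and 7.01% over all genes. The 9 genes were chosen by name and the shares carry no test. A gene could pass the filter on low counts mainly through the classes where it was high. Cdk6, with 2 reads in oligodendrocyte-like cells, and Cdkn1c, with 0 in RGL cells, are such genes. They can hardly be called higher in a class where they were near 0, so the directions are a description.

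**Figure D1:**
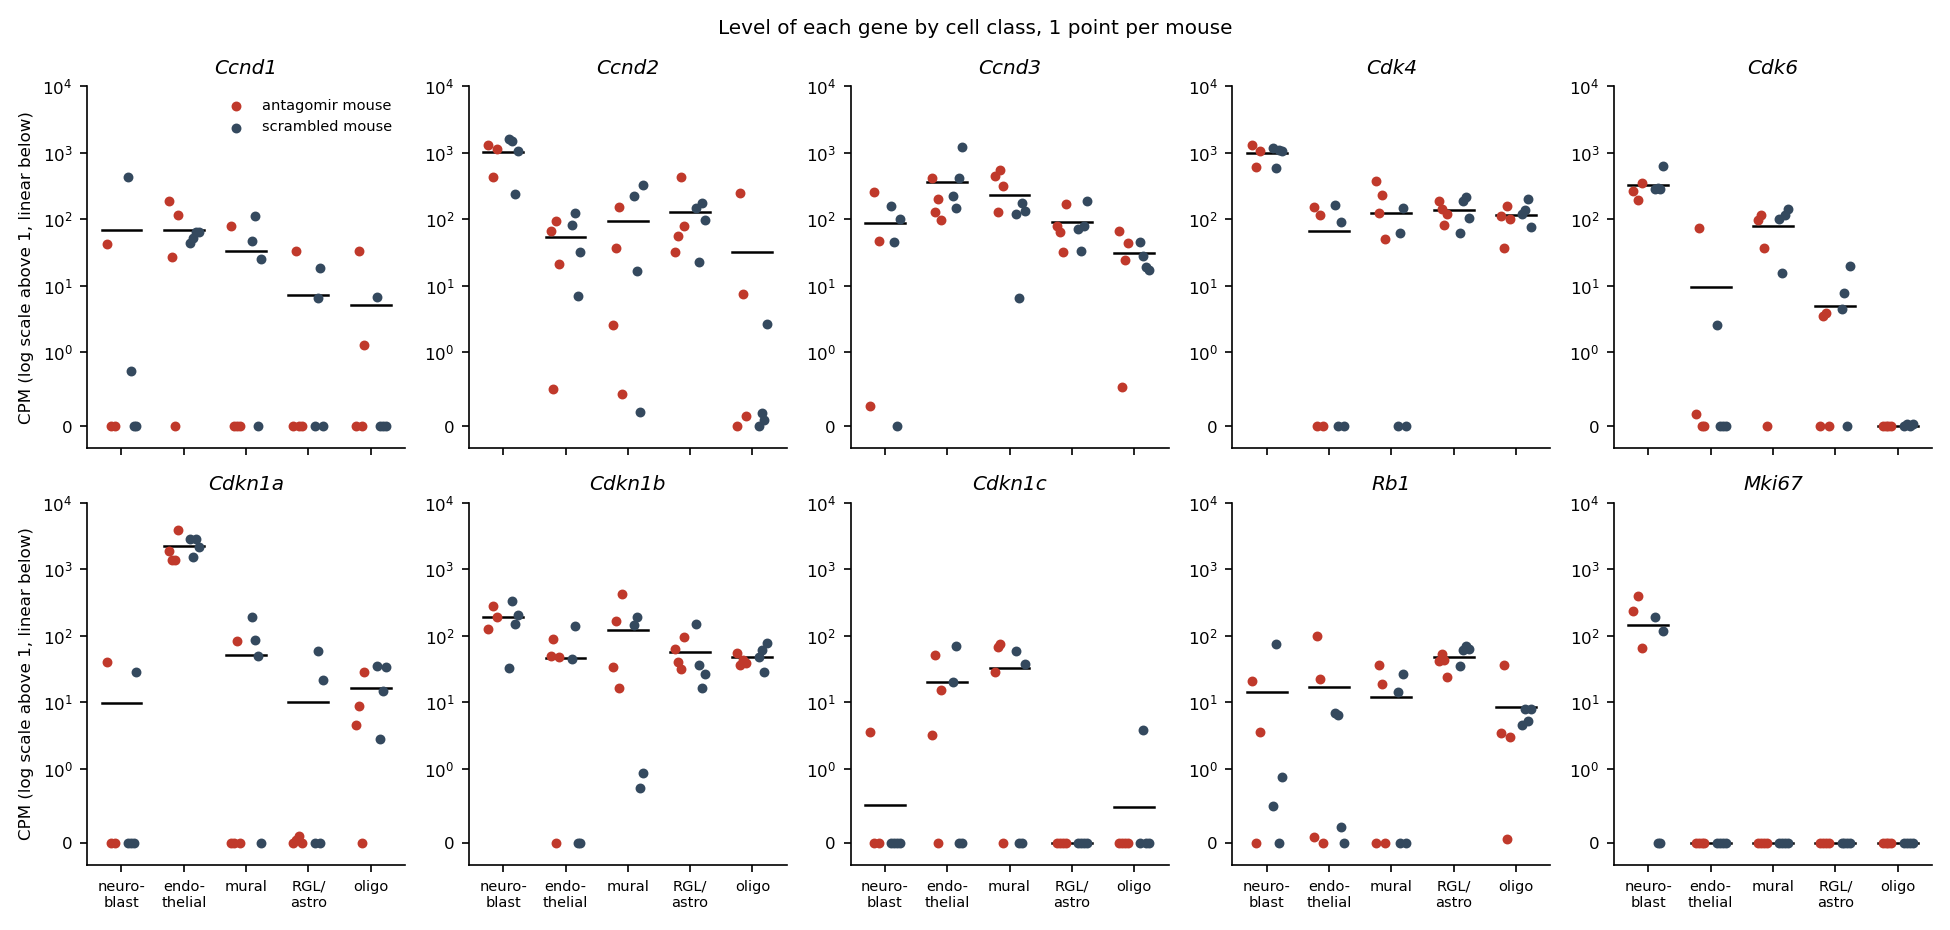
Level of each of the 10 genes in CPM (log scale above 1, linear below) in 5 cell classes. Points are mice, antagomir left of scrambled, and the bar is the mean over mice; Cdkn1a lies above 1368 CPM in all 8 endothelial-like sums, and Mki67 lies above 0 in neuroblast-like sums only.

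Among the D cyclins, Ccnd2 (chr6:127125162-127152193 on GRCm38, − strand), the cyclin of dividing neural precursors, had its highest level in neuroblast-like cells. It averaged 1034 ± 516 CPM in neuroblast-like cells, 53.2 ± 44.6 in endothelial-like, 94.8 ± 125 in mural-like, 129 ± 131 in RGL and 32.5 ± 87.6 in oligodendrocyte-like cells. The neuroblast-like sums were 1303, 432 and 1132 CPM in antagomir mice 2, 6 and 8, and 1589, 1500, 241 and 1043 CPM in scrambled mice 1, 3, 5 and 7. Every one of the 7 mice had more Ccnd2 in its neuroblast-like cells than in its endothelial-like, mural-like, RGL or oligodendrocyte-like cells. The difference passed the test against endothelial-like cells (3.46 log2 units above the median gene, SE 1.40, edgeR adjusted p = 0.0365), mural-like cells (4.22, SE 1.55, edgeR adjusted p = 0.0333) and oligodendrocyte-like cells (9.89, SE 2.26, edgeR adjusted p = 0.0035). Against RGL cells it was 3.30 (SE 1.45) and did not pass (edgeR adjusted p = 0.289). The first pair lost its call without mouse 1, 2, 3, 5, 6, 7 or 8 and the second without mouse 2, 3, 5 or 8, and both lost it in fits of either library pool alone.

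Within the D cyclin family, with levels divided by transcript length, Ccnd2 made up 80.2% of the summed level in neuroblast-like cells and was the highest of the 3 in 7 of 7 mice. At least 10 counts were found in 27 of 37 neuroblast-like cells, or 73.0% (95% Wilson interval 57.0 to 84.6%), and in 38 of 190 RGL cells, or 20% (14.9 to 26.3%).

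RGL cells were next in order for Ccnd2, and also exceeded oligodendrocyte-like cells (6.69, SE 2.08, edgeR adjusted p = 0.0205) in 7 of 8 mice. The exception was antagomir mouse 4, where 1 oligodendrocyte-like well held 5223 Ccnd2 reads, 95.3% of all Ccnd2 reads of that class. That well had 568 genes and no oligodendrocyte marker with 10 counts. Without it and 2 other wells of that kind, oligodendrocyte-like Ccnd2 was 1.05 ± 1.88 CPM, with at least 10 counts in 2 of 300 cells. The RGL call was lost without mouse 2, 3, 5 or 8 and in the fit of the pool with mice 3, 4, 7 and 8.

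Ccnd3 (chr17:47505051-47599691, + strand), known for its role in blood cell and muscle growth, had counts in 259 of 716 cells, 36.2% (32.7 to 39.8%). It averaged 86.4 ± 93.0 CPM in neuroblast-like, 355 ± 368 in endothelial-like, 233 ± 184 in mural-like, 89.0 ± 57.4 in RGL and 30.6 ± 20.5 in oligodendrocyte-like cells. The endothelial-like sums, 96.5 to 1215 CPM, did not overlap the oligodendrocyte-like sums of 0.525 to 66.2 CPM. That difference was the 1 Ccnd3 call (4.26, SE 0.94, edgeR adjusted p = 0.0383), and it was lost without mouse 1, 4 or 7. Of the summed D cyclin level per transcript length, Ccnd3 made up 58.4% among endothelial-like cells, 57.6% among mural-like cells and 53.1% among oligodendrocyte-like cells. Without the 3 oligodendrocyte-like wells that lack markers the last share was 92.6%. Of the 259 cells with Ccnd3 counts, 75 had only 1 or 2 reads.

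Ccnd1 (chr7:144929931-144939925, − strand), the D cyclin that growth factor signals induce, was rare in the larger classes and present in every oligodendrocyte precursor-like cell. All 5 of those cells, 4 from an antagomir and 1 from a scrambled mouse, had at least 10 counts, and their sums were 508 and 519 CPM in the 2 mice, with no minimum of cells applied. Elsewhere it averaged 67.9 ± 162 CPM in neuroblast-like, 69.1 ± 58.4 in endothelial-like, 33.1 ± 43.4 in mural-like, 7.26 ± 12.3 in RGL and 5.11 ± 11.4 in oligodendrocyte-like cells. The well of mouse 4 described for Ccnd2 held 75.8% of the oligodendrocyte-like Ccnd1 reads, and without the 3 wells that lack markers the oligodendrocyte-like mean was 1.0 ± 2.35 CPM. The neuroblast-like mean rested on scrambled mouse 1, at 433 CPM, with 4 of 7 mice at 0. None of the 10 pairs of the larger classes passed edgeR's test.

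The kinase genes had the same leading class as Ccnd2. Cdk4 (chr10:127063534-127067920, + strand, overlapping Tspan31 on the other strand by 641 bases of exon) averaged 987 ± 276 CPM in neuroblast-like cells, 65.7 ± 73.5 in endothelial-like, 123 ± 128 in mural-like, 137 ± 55.5 in RGL and 117 ± 50.6 in oligodendrocyte-like cells. The neuroblast-like sums were 1301, 614 and 1066 CPM in antagomir mice 2, 6 and 8 and 1183, 590, 1101 and 1055 CPM in scrambled mice 1, 3, 5 and 7, and the highest sum of any other of these classes was 372 CPM. The groups did not overlap in any of the 4 pairs, but only the pair with endothelial-like cells passed (3.50, SE 1.39, edgeR adjusted p = 0.0327), and that call was lost without any 1 of mice 2 to 8. The other 3 pairs stood 2.65 to 2.94 log2 units above the median gene with adjusted p of 0.124 to 0.353 in edgeR's test. At least 10 counts were found in 32 of 37 neuroblast-like cells, 86.5% (72.0 to 94.1%), and in 123 of 303 oligodendrocyte-like cells, 40.6% (35.2 to 46.2%).

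Cdk6 (chr5:3341485-3531008, + strand), the other D cyclin kinase, had the most calls between classes of the 10 genes. It averaged 328 ± 138 CPM in neuroblast-like, 9.45 ± 25.6 in endothelial-like, 78.1 ± 52.7 in mural-like, 4.95 ± 6.65 in RGL and 0.0063 ± 0.0117 in oligodendrocyte-like cells. The neuroblast-like sums were 266, 194 and 347 CPM in antagomir mice 2, 6 and 8 and 283, 298, 287 and 624 CPM in scrambled mice 1, 3, 5 and 7. None of these overlapped a sum of another of the 5 classes, the highest of which was 142 CPM. Neuroblast-like cells exceeded endothelial-like (8.54, SE 2.02, edgeR adjusted p = 0.00106), RGL (7.32, SE 1.61, edgeR adjusted p = 0.00371) and oligodendrocyte-like cells (14.9, SE 2.05, edgeR adjusted p = 4.6e-06) in 7 of 7 mice. They were also above mural-like cells in 7 of 7 mice, but that difference did not pass (edgeR adjusted p = 0.26).

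Oligodendrocyte-like cells had 2 Cdk6 reads in 303 cells. The pooled neuroblast-like level was 39737 times theirs (counting interval 10996 to 328188). That interval covers the counting of reads only, and not the spread over cells or mice. Neuroblast-like cells with the transcript held a median of 189.5 reads, so 1 missed oligodendrocyte-like cell could move the ratio far outside it. Of the 21 calls, the Cdk6 difference between neuroblast-like and oligodendrocyte-like cells was the only 1 that passed in all 19 alternative fits. Mural-like cells were second in order, with 98.2, 117, 37.1 and 0 CPM in antagomir mice 2, 4, 6 and 8 and 101, 15.8, 113 and 142 CPM in scrambled mice 1, 3, 5 and 7. They exceeded oligodendrocyte-like cells in 7 of 8 mice (12.9, SE 1.91, edgeR adjusted p = 2.8e-05), and endothelial-like cells were below them (−6.57, SE 1.85, edgeR adjusted p = 0.00823). The 2 calls that set RGL or endothelial-like cells above oligodendrocyte-like cells rested on means under 10 CPM in RGL and endothelial-like cells, and the endothelial-like call was lost without mouse 1, 2 or 4. With levels divided by transcript length, Cdk4 made up 86.6% or more of the summed Cdk4 and Cdk6 level in each of the 5 classes.

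**Figure D2:**
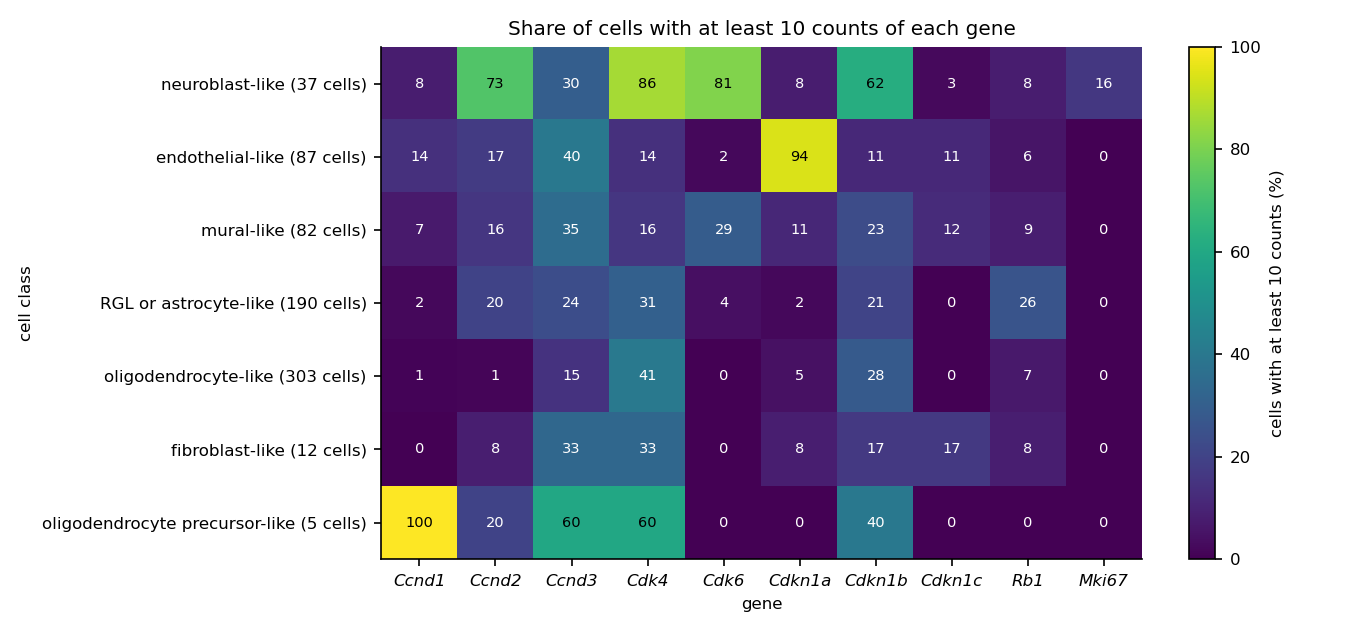
Share of cells (%) with at least 10 counts of each gene (columns) in 7 cell classes (rows, with cell numbers). Neuroblast-like cells lead for Cdk4 (86.5%) and Cdk6 (81.1%), endothelial-like cells for Cdkn1a (94.3%) and oligodendrocyte precursor-like cells for Ccnd1 (100% of 5).

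Among the inhibitors, Cdkn1a (chr17:29090976-29100727, + strand), which p53 and other stress signals induce, had its highest level in endothelial-like cells. It averaged 9.83 ± 17.1 CPM in neuroblast-like cells, 2239 ± 891 in endothelial-like, 51.6 ± 68.1 in mural-like, 10.1 ± 21.1 in RGL and 16.2 ± 14.6 in oligodendrocyte-like cells. The endothelial-like sums were 1897, 1368, 1373 and 3851 CPM in antagomir mice 2, 4, 6 and 8 and 2861, 1507, 2878 and 2173 CPM in scrambled mice 1, 3, 5 and 7. The highest sum of any other of these classes was 191 CPM, in mural-like cells, so the groups did not overlap. All 4 pairs passed in edgeR's test and held in every mouse with both classes. Endothelial-like cells exceeded mural-like (5.78, SE 1.99, edgeR adjusted p = 0.0421), RGL (11.9, SE 2.64, edgeR adjusted p = 0.00448) and oligodendrocyte-like cells (8.21, SE 1.99, edgeR adjusted p = 0.0146). Neuroblast-like cells were below endothelial-like cells (−10.8, SE 2.72, edgeR adjusted p = 0.0062). The call against mural-like cells was lost without mouse 4, 5, 7 or 8.

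Most endothelial-like cells held the transcript. At least 10 counts were found in 82 of 87, 94.3% (87.2 to 97.5%), and 65 of 87 exceeded 1000 CPM, with a median cell at 1877 CPM. The shares were 3 of 37 in neuroblast-like, 9 of 82 in mural-like, 4 of 190 in RGL and 14 of 303 in oligodendrocyte-like cells. Of the summed Cip/Kip level per transcript length, Cdkn1a made up 96.9% in endothelial-like cells and led in 8 of 8 mice. Within mural-like cells the 8 cells of a small Acta2 and Myh11 cluster from 3 mice stood apart, with Cdkn1a at 598 CPM and in 7 of 8 cells, against 21.3 CPM and 2 of 74 cells at that count in the larger mural-like cluster.

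Endothelial-like cells also had high levels of immediate early genes, which respond to cell handling among other stimuli. Fos averaged 443 ± 345 CPM in neuroblast-like, 3577 ± 2033 in endothelial-like, 4344 ± 4230 in mural-like, 869 ± 973 in RGL and 1017 ± 885 in oligodendrocyte-like cells. Jun had its highest mean in endothelial-like cells, as Cdkn1a did. It averaged 454 ± 463 CPM in neuroblast-like, 2462 ± 1224 in endothelial-like, 1376 ± 1401 in mural-like, 292 ± 334 in RGL and 321 ± 263 in oligodendrocyte-like cells. Of 52 endothelial-like cells with at least 10 Fos counts, all 52 had at least 10 Cdkn1a counts, with a median of 2165 CPM. Of 28 endothelial-like cells with no Fos count, 23 had at least 10 Cdkn1a counts, or 82.1% (64.4 to 92.1%), with a median of 1170 CPM. Mural-like cells with at least 10 Fos counts had at least 10 Cdkn1a counts in 6 of 25 (24.0%, 11.5 to 43.4%), against 3 of 54 mural-like cells with no Fos count (5.56%, 1.91 to 15.1%). This split overlaps the 2 mural-like clusters. The Acta2 and Myh11 cluster had at least 10 Fos counts in 6 of 8 cells and at least 10 Cdkn1a counts in 7. In the larger cluster these were 19 and 2 of 74 cells, so Fos and cluster cannot be told apart here. The part of cell handling in the endothelial-like Cdkn1a level was not tested. The p53 gene Trp53, whose protein induces Cdkn1a, averaged 388 ± 124 CPM in neuroblast-like and 139 ± 79.8 CPM in endothelial-like cells. It averaged 75.2 ± 79.7 CPM in mural-like, 64.3 ± 41.8 CPM in RGL and 24.2 ± 13.3 CPM in oligodendrocyte-like cells. These are RNA levels, and the part of p53 protein in the endothelial-like Cdkn1a level was not tested.

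Cdkn1b (chr6:134920401-134925513, + strand), whose protein holds many resting cells outside the cycle, was the leading inhibitor transcript in neuroblast-like, RGL and oligodendrocyte-like cells. It averaged 189 ± 99.5 CPM in neuroblast-like, 46.8 ± 49.9 in endothelial-like, 123 ± 147 in mural-like, 58.0 ± 45.8 in RGL and 48.5 ± 15.7 in oligodendrocyte-like cells, and none of the 10 pairs passed the test. Its share of the summed Cip/Kip level per transcript length was 92.0% in neuroblast-like cells, where it led in 7 of 7 mice, 84.2% in RGL cells and 68.3% in oligodendrocyte-like cells. At least 10 counts were found in 23 of 37 neuroblast-like cells, 62.2% (46.1 to 75.9%).

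Cdkn1c (chr7:143458339-143461050, − strand) is an imprinted gene whose protein keeps adult hippocampal stem cells of the mouse at rest. It was not found in a single cell of the RGL class. Its count was 0 in all 190, which allows a share of up to 1.58% of cells with a read. The class joins radial glia-like and astrocyte-like cells, so that limit does not describe stem cells alone. In a cluster of 22 RGL cells that all had Nes reads, Cdkn1c was also at 0, with a Wilson interval of up to 14.9%. Its means were 0.514 ± 1.36 CPM in neuroblast-like cells, 20 ± 26.6 CPM in endothelial-like cells, 33.3 ± 31.3 CPM in mural-like cells and 0.479 ± 1.35 CPM in oligodendrocyte-like cells. Pooled over mice, endothelial-like cells were 671-fold and mural-like cells 1354-fold above a floor of 3 reads over the RGL class. That floor counts reads and not cells, and is no lower bound on the difference. Cells with the transcript held a median of 90 reads in endothelial-like and 137 in mural-like cells, so 1 missed RGL cell could lower both folds far. Both vascular classes passed against RGL cells (edgeR adjusted p = 0.00682 and 0.0024), and both passed against oligodendrocyte-like cells (edgeR adjusted p = 0.04 and 0.0223). The gene was found in 5 of the 8 mice in each of the vascular classes, in 10 of 87 endothelial-like and 11 of 82 mural-like cells. The 2 calls against oligodendrocyte-like cells were lost when single mice were left out (mouse 1, 2, 4, 6, 7 or 8 for endothelial-like and mouse 1, 4, 6 or 7 for mural-like cells).

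Rb1 (chr14:73183673-73325822, − strand), the gene of the retinoblastoma protein, had its highest mean in RGL cells, at 14.3 ± 27.4 CPM in neuroblast-like, 16.8 ± 33.6 in endothelial-like, 12 ± 14.3 in mural-like, 48.8 ± 15.3 in RGL and 8.53 ± 11.5 in oligodendrocyte-like cells. The RGL sums were 41.7, 52.3, 43.3 and 24.3 CPM in antagomir mice 2, 4, 6 and 8 and 35.5, 60.5, 70.2 and 62.3 CPM in scrambled mice 1, 3, 5 and 7. RGL cells stood above the oligodendrocyte-like cells of the same mouse in 8 of 8 mice (3.03, SE 1.57, edgeR adjusted p = 0.203). The mural-like cells of a mouse were below its RGL cells in 8 of 8 mice, the endothelial-like cells in 7 of 8 and the neuroblast-like cells in 6 of 7. No Rb1 pair passed the test, so the order is a description. At least 10 counts were found in 49 of 190 RGL cells, 25.8% (20.1 to 32.4%), and in 21 of 303 oligodendrocyte-like cells, 6.93% (4.58 to 10.4%).

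Mki67 (chr7:135689784-135716361, − strand) was found in 6 of 716 cells, all of them neuroblast-like, in antagomir mice 2, 6 and 8 and scrambled mice 1 and 7. That is 16.2% (7.65 to 31.1%) of neuroblast-like cells, and 0 of the 679 other cells, which allows a share of up to 0.442% of cells with a read. The neuroblast-like sums were 238, 394 and 65.9 CPM in antagomir mice 2, 6 and 8 and 191, 0, 0 and 118 CPM in scrambled mice 1, 3, 5 and 7. Each of the 6 cells had between 256 and 1733 CPM.

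The 6 cells with Mki67 are set beside the other 31 neuroblast-like cells as a description with no test, since the cells share mice and libraries. They had a median of 15.5 of the 20 listed G2 and mitosis genes at 10 counts or more, against a median of 0 in the other 31. In mouse 8 the cell with Mki67 had 2 of these genes. The other 31 cells reached up to 6 of them, and up to 19 of the 20 listed S phase and replication genes (median 3). A lack of Mki67 reads thus does not place a cell outside the cycle. The cells with Mki67 had 5249 and 5372 detected genes in mouse 1, and 5214, 3588, 5625 and 3830 in mice 2, 6, 7 and 8. The median over all neuroblast-like cells was 3285 genes. Doublets were not treated beyond the limit of 6000 genes. The part of gene number and doublets in the levels and shares below was not tested. Median Ccnd2 was 1825 CPM in cells with Mki67, against 225 CPM in cells without Mki67. The mouse 2 cell with Mki67, which had 18 of the G2 and mitosis genes, was below that 225 CPM for Ccnd2. Median Cdk6 was 494 CPM in cells with Mki67, against 202 CPM in cells without. Median Cdk4 was 1265 against 930 CPM. The inhibitor Cdkn1b was also at a higher median in cells with Mki67, 181 against 56.8 CPM, with at least 10 counts in 6 of 6 against 17 of 31. Calb2, a marker of postmitotic immature granule neurons, had at least 10 counts in 0 of 6 against 19 of 31 cells. Of the 31 cells without Mki67, 26 had at least 10 Cdk4 counts, 24 Cdk6 and 21 Ccnd2, so kinase and cyclin transcripts were not limited to the cells with Mki67.

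**Figure D3:**
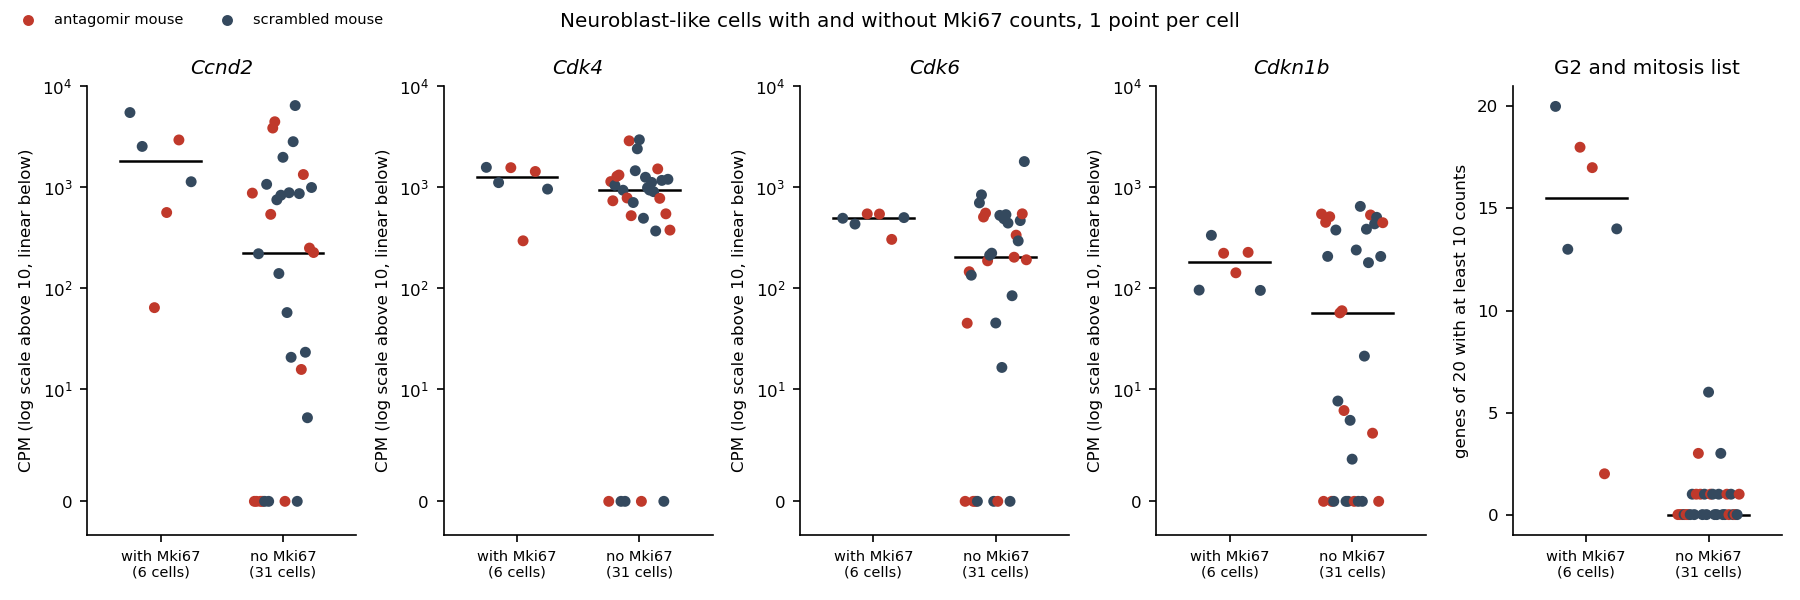
Levels (CPM) of Ccnd2, Cdk4, Cdk6 and Cdkn1b and the number of G2 and mitosis genes (of 20) with at least 10 counts in single neuroblast-like cells, 6 with Mki67 reads on the left and 31 without on the right. Points are cells and bars are medians; the medians for Ccnd2 are 1825 and 225 CPM.

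The shares differed between clusters of the RGL class. It comprised 3 clusters of 88, 80 and 22 cells, and the smallest, from 7 mice and led by Thrsp, Ptprz1 and Fabp7, had Nes reads in all 22 cells. Cdk6 had at least 10 counts in 8 of these 22 cells, 36.4% (19.7 to 57.0%), and in 0 of 88 and 0 of 80 cells of the other 2 clusters. Ccnd2 had at least 10 counts in 15 of 22, 68.2% (47.3 to 83.6%), against 19 of 88, 21.6% (14.3 to 31.3%), and 4 of 80, 5.0% (1.96 to 12.2%). Cdk4 was found at that count in 54.5% of the 22 cells, against 44.3% and 8.75%, and Rb1 in 13.6%, against 36.4% and 17.5%. The cluster of 80 cells was shallow, with a median of 1679.5 genes and 6.39% mitochondrial counts, and the part of depth in its low shares was not tested. At a coarser clustering the 22 cells joined the neuroblast-like cluster, and the RGL calls for Ccnd2 and Cdk6 against oligodendrocyte-like cells were then lost.

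The RGL cells were also split by Nes counts, a split that overlaps the clusters. Of the 70 RGL cells with at least 10 Nes counts, 24 had at least 10 Ccnd2 counts (34.3%, 24.2 to 46.0%) and 8 had at least 10 Cdk6 counts (11.4%, 5.91 to 21%). Of the 120 RGL cells with fewer Nes counts, 14 had Ccnd2 (11.7%, 7.08 to 18.6%) and none Cdk6. All 22 cells of the small cluster were among the 70, with 15 of the 24 Ccnd2 cells and all 8 Cdk6 cells. The other 48 cells with Nes had Ccnd2 in 9 (18.8%, 10.2 to 31.9%) and Cdk6 in 0, so outside the small cluster the 2 Nes groups overlapped in their intervals. Wilson intervals here and elsewhere pool cells or wells over mice and leave out the spread between mice. Rb1 was at that count in 25.7% of the cells with Nes and 25.8% of the others. None of the 190 cells had an Mki67 read.

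**Figure D4:**
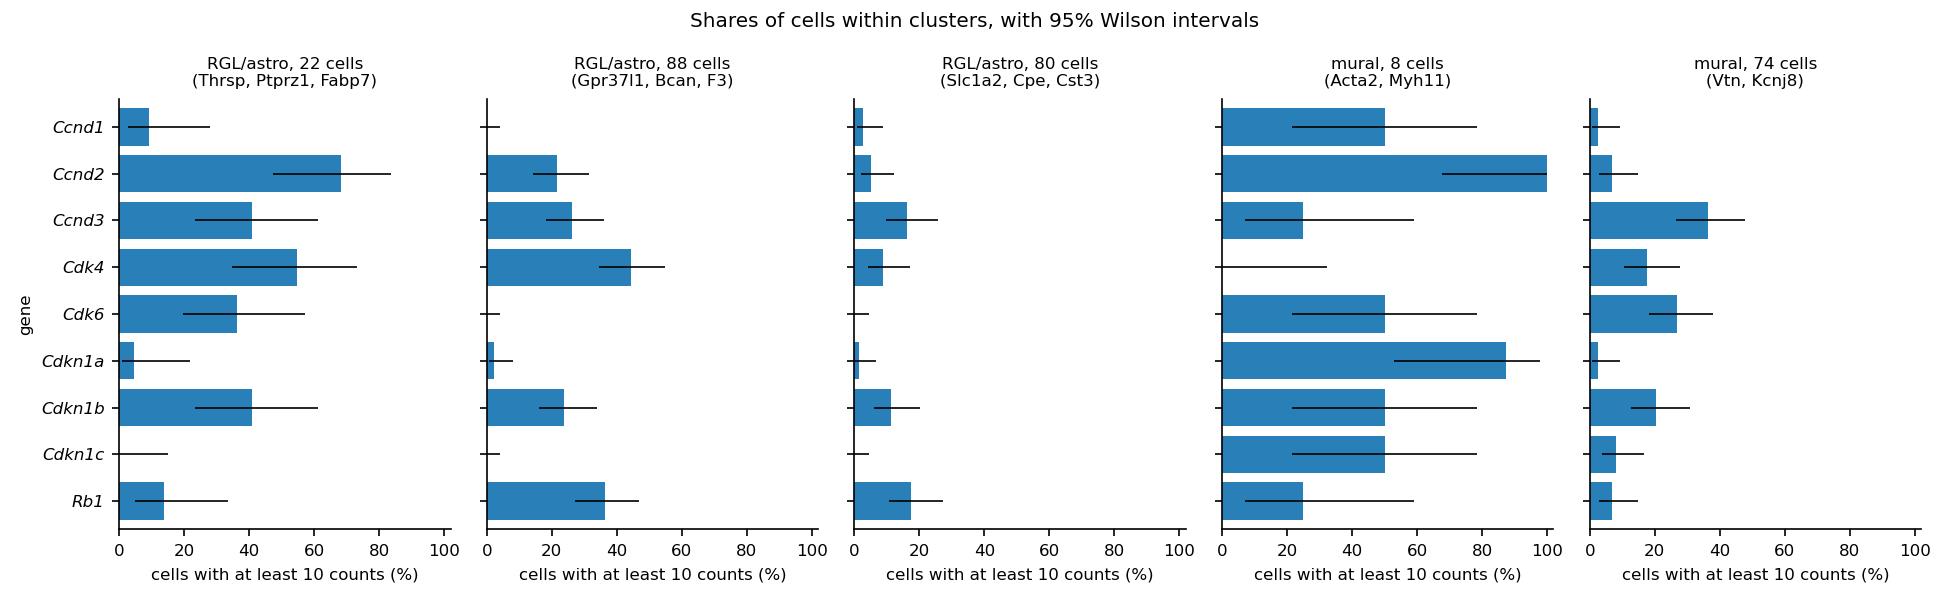
Share of cells (%, horizontal axis) with at least 10 counts of 9 genes (vertical axis) in the 3 clusters of the RGL class and the 2 of the mural-like class. Bars are pooled over mice and whiskers are 95% Wilson intervals; the 22-cell RGL cluster reaches 68.2% for Ccnd2 and 36.4% for Cdk6, and the other RGL clusters have 0% for Cdk6.

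Transcripts that occur together in 1 cell were counted next. A D cyclin together with Cdk4 or Cdk6, each at 10 counts or more, was found in 29 of 37 neuroblast-like cells (78.4%, 62.8 to 88.6%), 7 of 87 endothelial-like cells (8.05%, 3.95 to 15.7%), 20 of 82 mural-like cells (24.4%, 16.4 to 34.7%), 28 of 190 RGL cells (14.7%, 10.4 to 20.5%) and 19 of 303 oligodendrocyte-like cells (6.27%, 4.05 to 9.59%). An inhibitor accompanied the pair in 19 of those 29 neuroblast-like cells and in all 7 of the endothelial-like cells. None of the 9 genes other than Mki67 reached 10 counts in 1 of 37 neuroblast-like, 3 of 87 endothelial-like, 22 of 82 mural-like, 59 of 190 RGL and 94 of 303 oligodendrocyte-like cells. In Smart-seq2 data a transcript at a low level is often missed in a cell. That lowers the shares of cells with transcripts and raises the shares with none of the 9 genes. Doublets, wells that lack markers of their class and reads of an overlapping gene could act the other way. Their part was not tested, so the shares are not limits in either direction. With every cell thinned to 200000 counts, which left out 3, 9, 8, 20 and 5 cells of the classes in the order above, the share with any count was 76.5% for Ccnd2 (78.4% unthinned) and 82.4% for Cdk6 (81.1%) in neuroblast-like cells. It was 96.2% for Cdkn1a (94.3%) in endothelial-like cells, 30.6% for Rb1 (30.5%) in RGL cells and 18.5% for Ccnd3 (26.1%) in oligodendrocyte-like cells.

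Genes with the most similar pattern over the 39 class-by-mouse sums, by Pearson r of log2(CPM + 1) among 7764 genes, were Itm2a (r = 0.88), Fli1 (0.86) and Atp10a (0.86) for Cdkn1a, Tmem178 (0.85), F2r (0.84) and Serping1 (0.78) for Cdk6, and Rfng (0.81), Snap47 (0.74) and Eef1akmt1 (0.74) for Cdk4. For Ccnd2 they were Nrep (0.77), Sept3 (0.69) and Grin2b (0.69), for Ccnd3 Ski (0.73), Vim (0.73) and B2m (0.71), for Cdkn1b Snrnp70 (0.78), Thoc1 (0.76) and Kifap3 (0.76), and for Rb1 Agpat5 (0.74), Gabbr1 (0.67) and Slc7a11 (0.65). The sums share mice, libraries and cell classes, and Itm2a is itself a marker used to name endothelial-like cells.

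Genes around the 10 in the same pathway were read from 5 lists, with no test of a list. A gene entered the fit if enough of the sums held counts of it, so it could enter mainly through the class where it was high. Such a gene can hardly be called lower in that class. Of the other RB pathway and G1 regulators, 27 of 180 differences between classes were called (15%), against 18.9% of all tests. Of the 72 with neuroblast-like cells, 9 were called higher there and 1 lower. Over all genes in such pairs, 7.33% were called higher and 9.53% lower in neuroblast-like cells. Mycn, a growth-promoting transcription factor, averaged 221 ± 111 CPM in neuroblast-like and 0.0335 ± 0.0947 CPM in mural-like cells. The INK4 inhibitor gene Cdkn2c averaged 44.4 ± 34.4 CPM in neuroblast-like cells and was at 0 in endothelial-like cells. Another INK4 gene, Cdkn2b, was at 0 in neuroblast-like cells and averaged 158 ± 190 CPM in endothelial-like cells, where 13 cells held it. Of S phase and replication genes 28 of 150 differences were called (18.7%). Of the 60 with neuroblast-like cells, 18 were called higher there and 0 lower. The replicative helicase subunit gene Mcm5 averaged 177 ± 264 CPM in neuroblast-like cells and was at 0 in endothelial-like cells, and the licensing factor gene Cdt1 averaged 67.0 ± 101 CPM in neuroblast-like cells and was at 0 in endothelial-like cells. Mcm4 was at 0 in endothelial-like cells and averaged 90.2 ± 99.9 CPM in mural-like cells.

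Of the 20 G2 and mitosis genes, 4 had counts enough to be tested, and 9 of 40 differences were called (22.5%). Of the 16 with neuroblast-like cells, 6 were called higher there and 0 lower. With 4 of 20 genes past the filter on low counts, that split is a description. Hmgb2, a chromatin protein gene, averaged 320 ± 222 CPM in neuroblast-like and 4.35 ± 5.21 CPM in oligodendrocyte-like cells, the anaphase activator gene Cdc20 averaged 106 ± 192 CPM in neuroblast-like cells and the kinesin gene Cenpe 33.2 ± 45.5 CPM. Both were at 0 in mural-like cells. Of the p53 list 24 of 140 differences were called (17.1%), and its members went to different classes. Of the 56 with neuroblast-like cells, 2 were called higher there and 6 lower. Perp, a junction protein gene, averaged 845 ± 270 CPM in mural-like and 0.0232 ± 0.0348 CPM in RGL cells. The kinase gene Plk2 averaged 449 ± 211 CPM in endothelial-like and 0.111 ± 0.125 CPM in mural-like cells. Phlda3, an Akt repressor gene, was at 0 in neuroblast-like cells and averaged 238 ± 129 CPM in oligodendrocyte-like cells. Of regulators upstream of the inhibitors and D cyclins 25 of 170 were called (14.7%). Of the 68 with neuroblast-like cells, 1 was called higher there and 11 lower. Klf4, a transcription factor that activates Cdkn1a, was at 0 in neuroblast-like cells and averaged 216 ± 88.7 CPM in endothelial-like cells, 61 of which held it. Hes1, a Notch target, was at 0 in neuroblast-like cells and averaged 146 ± 134 CPM in mural-like cells, and Smad3 was at 0 in neuroblast-like and averaged 39.2 ± 41.3 CPM in mural-like cells. All genes named in the 2 paragraphs on lists passed an adjusted p of 0.05 in edgeR's test in the pair given.

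The treatment comparison asked whether the levels of these genes differed between antagomir and scrambled mice. No difference of the 10 passed the test. In counts summed over all kept cells of a mouse, 0 of 15447 tested genes (0%) passed an adjusted p of 0.05 in edgeR's quasi-likelihood test, and 280 (1.81%) had an unadjusted p under 0.05, none of them among the 10. DESeq2 called 10 genes (0.0647%) and limma 0, and none of the 10 genes was among them. No gene of the 10 had antagomir mice all above or all below the scrambled mice, which was the case for 1.82% of genes averaging over 1 CPM.

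Cdk6, which holds an 8mer seed match, came nearest in all cells. It stood at 20.3, 19.6, 18.1 and 16.9 CPM in antagomir mice 2, 4, 6 and 8 and at 31.5, 15.6, 24.7 and 44.2 CPM in scrambled mice 1, 3, 5 and 7. The antagomir mice were close together and 3 of the 4 scrambled mice stood above them, with mouse 3 below all. Most Cdk6 reads came from neuroblast-like cells (7123 reads) and mural-like cells (3447 reads). The number of neuroblast-like cells ran from 1 to 6 in antagomir mice and from 4 to 7 in scrambled mice. The part of these cell numbers in the Cdk6 values was not tested. The log2 difference of −0.67 (SE 0.40, 95% interval −1.55 to 0.21) did not pass (edgeR adjusted p = 0.9999). Rb1, with the other 8mer match, stood at 8.82, 45.2, 16.8 and 6.53 CPM in antagomir mice 2, 4, 6 and 8 and at 15.5, 16.5, 22.4 and 20.6 CPM in scrambled mice 1, 3, 5 and 7. Its log2 difference was −0.01 (SE 0.60, 95% interval −1.35 to 1.33). Ccnd2, with the 7mer match, stood at 89.3, 116, 171 and 71.1 CPM in antagomir mice 2, 4, 6 and 8 and at 174, 81.2, 51.7 and 97.9 CPM in scrambled mice 1, 3, 5 and 7, a log2 difference of 0.11 (SE 0.38, 95% interval −0.74 to 0.97). None of the 3 genes with a match passed, and the directions of Rb1 and Ccnd2 were not stable. Rb1 ran from −0.84 without mouse 4 to 0.43 in the pool with mice 3, 4, 7 and 8, and Ccnd2 was −0.19 without the wells that lack oligodendrocyte markers and −0.26 in wells with at least 1000 genes.

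Of the genes without a match, Cdkn1a stood at 341, 96.6, 187 and 282 CPM in antagomir mice 2, 4, 6 and 8 and at 547, 156, 295 and 87.4 CPM in scrambled mice 1, 3, 5 and 7 (log2 difference −0.27, SE 0.56). The number of endothelial-like cells ran from 5 to 17 in antagomir mice and from 3 to 19 in scrambled mice, and its part in these values was not tested. Within endothelial-like cells it averaged 2122 ± 1179 CPM in antagomir and 2355 ± 654 CPM in scrambled mice (n = 4 each, no test run). Cdk4 averaged 159 ± 53.5 CPM in antagomir and 166 ± 45.2 CPM in scrambled mice, with a 95% interval of the log2 difference of −0.76 to 0.58, and Cdkn1b averaged 59.2 ± 11.8 CPM in antagomir and 63.9 ± 28.4 CPM in scrambled mice. Mki67 was found in 3 of 353 antagomir and 3 of 363 scrambled cells. Ccnd3 averaged 107 ± 50.9 CPM in antagomir and 85.3 ± 33 CPM in scrambled mice (log2 difference 0.29, SE 0.43, 95% interval −0.67 to 1.25). The 3 remaining genes had the widest intervals, from −2.88 to 3.31 for Ccnd1, −2.87 to 3.59 for Cdkn1c and −3.72 to 5.87 for Mki67, so changes of severalfold in Ccnd1, Cdkn1c and Mki67 would not be detectable at this depth. The shares of cells with counts differed by −3.49 to 3.78 percentage points between treatments over the 10 genes. The smallest of the 10 exact two-sided permutation p-values over mice was 0.2, for Rb1, before any adjustment (the smallest that 4 against 4 mice allow is 0.0286).

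**Figure D5:**
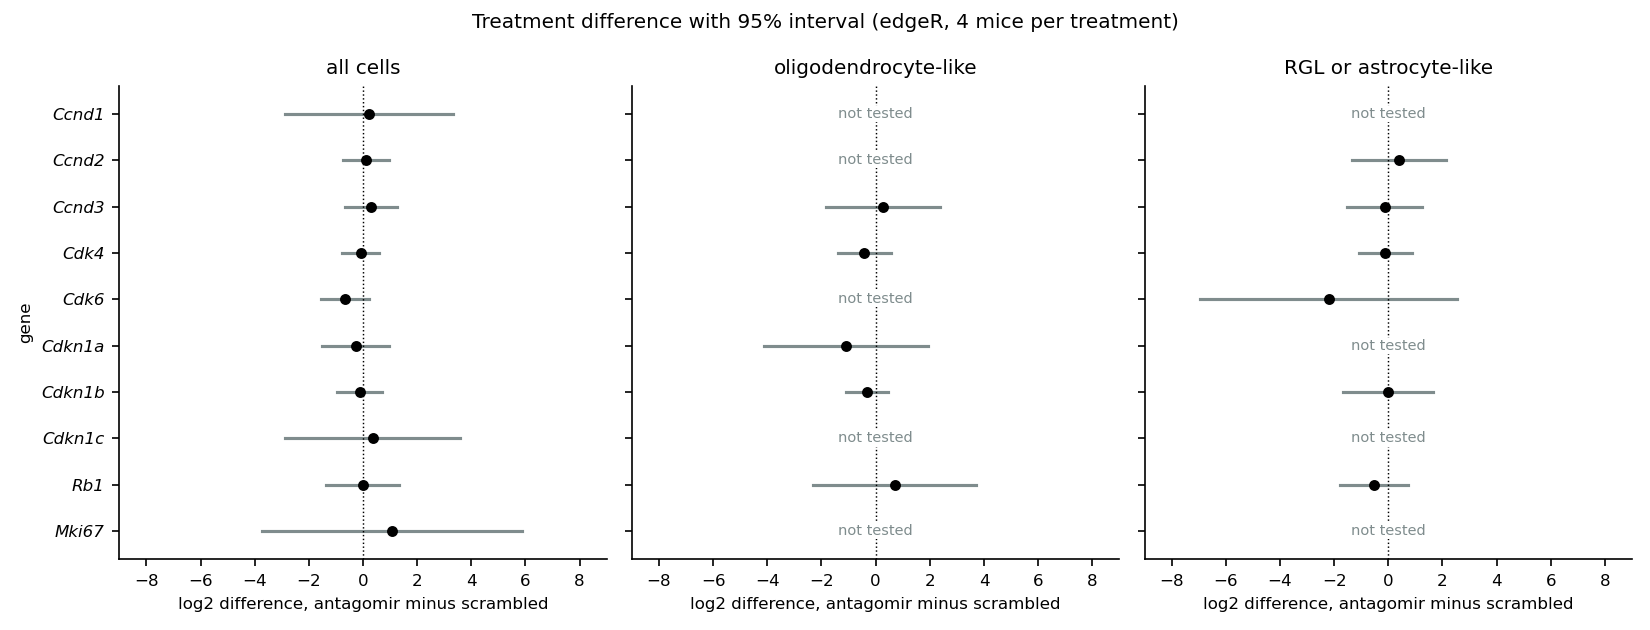
Log2 difference of each gene, antagomir minus scrambled, with its 95% interval (edgeR, 4 mice per treatment), in all cells, oligodendrocyte-like cells and RGL cells. Every interval holds 0, and genes with too few counts are marked as not tested.

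Within oligodendrocyte-like cells 0 of 10781 genes (0%) passed in edgeR's test (209 or 1.94% with an unadjusted p under 0.05, 13 or 0.121% called by DESeq2 and 0 by limma), and 5 of the 10 genes had counts enough to be tested. Cdk4 averaged 101 ± 49.6 CPM in antagomir and 133 ± 53.2 CPM in scrambled mice (log2 difference −0.42, SE 0.44), and Cdkn1a averaged 10.6 ± 12.8 CPM in antagomir and 21.8 ± 15.8 CPM in scrambled mice (log2 difference −1.10, SE 1.36). Cdkn1b averaged 43.0 ± 7.91 CPM in antagomir and 54.1 ± 20.8 CPM in scrambled mice (log2 difference −0.33, SE 0.35). Ccnd3 averaged 33.8 ± 28.0 CPM in antagomir and 27.5 ± 13.2 CPM in scrambled mice (log2 difference 0.28, SE 0.94). Rb1 averaged 10.7 ± 17.1 CPM in antagomir and 6.41 ± 1.71 CPM in scrambled mice (log2 difference 0.70, SE 1.36), where antagomir mouse 4 alone reached 36.1 CPM. Within RGL cells 0 of 10742 genes (0%) passed (148 or 1.38% with an unadjusted p under 0.05, 4 or 0.0372% called by DESeq2 and 0 by limma), and 6 of the 10 genes were tested. Rb1 averaged 40.4 ± 11.7 CPM in antagomir and 57.1 ± 15 CPM in scrambled mice (log2 difference −0.53, SE 0.58, 95% interval −1.80 to 0.73). RGL Ccnd2 averaged 148 ± 186 CPM in antagomir and 109 ± 65.7 CPM in scrambled mice, where antagomir mouse 6 alone reached 426 CPM (log2 difference 0.39, SE 0.79). RGL Cdk6 averaged 1.85 ± 2.14 CPM in antagomir and 8.05 ± 8.54 CPM in scrambled mice, with 5 cells in each group holding it (log2 difference −2.20, SE 2.17). The other 3 tested genes in RGL cells had log2 differences of −0.11 for Cdk4, −0.13 for Ccnd3 and −0.0072 for Cdkn1b. No member of the 10 had antagomir mice all to 1 side of scrambled mice in either class, which was so for 2.09% and 1.85% of genes. The difference of the treatment effects between the 2 classes was tested for 8 of the 10 genes and passed for none (0 of 13274 genes, 0%, with 283 or 2.13% at an unadjusted p under 0.05).

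No test of treatment was run in neuroblast-like cells, since tests were limited to classes with at least 10 cells in every mouse. In the 3 antagomir and 4 scrambled mice with at least 3 such cells, Ccnd2 averaged 956 ± 461 CPM in antagomir and 1093 ± 616 CPM in scrambled mice, Cdk6 269 ± 76.3 CPM in antagomir and 373 ± 167 CPM in scrambled mice, and Cdk4 994 ± 349 CPM in antagomir and 982 ± 267 CPM in scrambled mice. Mki67 reads were in 3 of 16 antagomir and 3 of 21 scrambled neuroblast-like cells.

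The 5 lists of pathway genes gave no treatment call, with 0 calls by edgeR among 22, 20, 19, 16 and 18 tested genes in all cells and 1 gene, in the list of upstream regulators, at an unadjusted p under 0.05. The median log2 difference over tested genes was 0.01 for the other RB pathway and G1 regulators, −0.07 for S phase and replication, −0.19 for G2 and mitosis, −0.12 for p53 and its targets and −0.15 for the upstream regulators, against 0.00373 for all genes and 0.05 for the 10. Tfdp2, an E2F partner gene, averaged 30.1 ± 13.4 CPM in antagomir and 47.4 ± 7.89 CPM in scrambled mice, and Cdk7, which activates other cyclin-dependent kinases, averaged 50.5 ± 9.44 CPM in antagomir and 36.0 ± 9.38 CPM in scrambled mice. Mcm4 averaged 24.0 ± 7.27 CPM in antagomir and 37.1 ± 4.2 CPM in scrambled mice, and Mdm2, whose protein degrades p53, averaged 55.4 ± 5.68 CPM in antagomir and 73.7 ± 18.5 CPM in scrambled mice. In oligodendrocyte-like cells the lowest unadjusted p of a listed gene was that of Mcm4 (22.2 ± 6.66 CPM in antagomir and 45.7 ± 12.9 CPM in scrambled mice), followed by Sesn1, a p53 target, at 11.4 ± 8.0 CPM in antagomir and 37.5 ± 18.2 CPM in scrambled mice. Neither passed the adjusted test (edgeR adjusted p = 1 for both).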

How the data were processed

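The authors deposited raw read counts per gene and well and a well table that gives each well its mouse, treatment, sort day and sequencing pool. Per the labels' protocols, 100 pg of cDNA per cell entered Nextera XT libraries. Per the submitters' processing notes, STAR 2.5.2, featureCounts 1.5.1 and Seurat 2.3.1 were used on mm10, with the strand setting and annotation not given in the sources used here, so reads of a gene and of a gene overlapping it on the other strand cannot be told apart. Reads carry no molecular identifiers, so intervals and floors cover counting error only.

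Wells with 500 to 6000 detected genes were kept, with no other treatment of doublets. Wells were clustered with scanpy 1.11.5 (2000 variable genes without 107 members and cell cycle or related list genes, 20 components, 15 neighbours, Leiden resolution 1.0) and named from marker lists. The labels list 2 samples per treatment, which could not be tied to single mice, so treatment and mouse come from the well table and mice are the replicates. Sums per mouse, or per class and mouse (at least 3 cells), were tested with edgeR 4.0.16 (filterByExpr, TMM, quasi-likelihood F test, Benjamini-Hochberg), with mouse as a block between classes. DESeq2 1.42.0 and limma 3.58.1 on log2(CPM + 1) were alternatives. Levels per transcript length used GENCODE exons on GRCm38; 29986 of 31557 symbols and all 10 genes matched.

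The 10 genes and the lists were chosen with earlier results of these data known. Named list genes were those past the threshold, otherwise the 2 with the smallest p in each direction over 20 CPM, and between classes the 3 with the largest called difference. The report names some of those.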

Additional observations from a re-analysis of the deposited data

Results flagged for a closer look

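Sums per class and mouse, and sums over all cells of the mice of each treatment, were screened for a mouse far from the others. Of 70 such groups 16 had one, all of them groups of a gene and a class. Chance gives about 1 in 20 for values with a normal spread. A group with 1 mouse above 0 is flagged by construction, as were both Cdkn1c groups below. The D cyclins gave 5: Ccnd1 at 433 CPM in neuroblast-like cells of mouse 1 and at 32.9 CPM in oligodendrocyte-like cells of mouse 4, Ccnd2 at 249 CPM in oligodendrocyte-like cells of mouse 4 and at 426 CPM in RGL cells of mouse 6, and Ccnd3 at 1215 CPM in endothelial-like cells of mouse 7. Cdk6 gave 3, at 624 CPM in neuroblast-like cells of mouse 7, 72.9 CPM in endothelial-like cells of mouse 4 and 19.9 CPM in RGL cells of mouse 7. The inhibitors gave 5: Cdkn1a at 191 CPM in mural-like cells of mouse 1 and 58.9 CPM in RGL cells of mouse 3, Cdkn1b at 430.0 CPM in mural-like cells of mouse 8, and Cdkn1c at 3.60 CPM in neuroblast-like cells of mouse 2 and 3.83 CPM in oligodendrocyte-like cells of mouse 3. Rb1 gave 3, at 74.1 CPM in neuroblast-like cells of mouse 3, 97.6 CPM in endothelial-like cells of mouse 4 and 36.1 CPM in oligodendrocyte-like cells of mouse 4. Single cells held much of some sums: 1 cell held 95.3% of the oligodendrocyte-like Ccnd2 reads, 90.3% of the endothelial-like Cdk6 reads and 71.0% of the neuroblast-like Ccnd1 reads.

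The 16 wells with over 6000 detected genes, which entered no comparison, held 9 of the 10 genes more often than the kept wells did, with Wilson intervals that did not overlap. They were set apart by their number of genes, and the same held for 78.6% of the 16638 genes found in 6 to 259 kept wells, the range of the 10 genes. The shares with counts were 62.5% for Ccnd1 (5.17% of kept wells), 87.5% for Ccnd2 (23.0%), 100% for Ccnd3 (36.2%), 100% for Cdk4 (34.9%), 81.25% for Cdk6 (10.3%), 93.75% for Cdkn1a (17.7%), 100% for Cdkn1b (32%), 50.0% for Cdkn1c (3.49%) and 93.75% for Rb1 (16.2%). Mki67 was in 1 of the 16.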

How the results depend on the processing

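No treatment difference of the 10 genes passed in edgeR's or DESeq2's test under any setting tried (nor in limma's), so the directions below are those of differences that no test called. The 3 treatment comparisons had 0 calls in edgeR, and DESeq2 called 10 genes in all cells, 13 in oligodendrocyte-like and 4 in RGL cells, none of them among the 10. Antagomir and scrambled mice of the same sort day and pool, per the well table, deviated together at correlations of −0.00218 to 0.146 in all cells, and with them as a replicate block the treatment fits still had 0 calls. The difference of treatment effects had 0 to 1 calls over the fits without single mice, with the 1 call without mouse 2. Between classes, 23944 calls over all genes and 21 of the 9 tested genes became 41113 and 40 with DESeq2, 25429 and 16 with no replicate block, 8686 and 8 in pool L5 alone, and 5805 and 6 in pool L6 alone, where the pools hold 4 mice each by construction. Of the 21, 1 passed in all 19 alternatives and 12 in every fit without a single mouse.

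Log2 differences that changed sign were, in all cells, Ccnd1 (−0.48 in wells of at least 1000 genes, −0.16 with sort day, −0.27 with the block, −0.026 in pool L5), Ccnd2 (−0.26 in wells of at least 1000 genes, −0.19 without oligodendrocyte-like wells that lack markers), Ccnd3 (−0.022 with limma, −0.20 in pool L6), Cdkn1c (−0.023 with limma), and Cdkn1a, Rb1 and Mki67 in pool L6 (0.67, 0.43 and −0.83). Rb1 was at 0.087 in wells of at least 1000 genes. In oligodendrocyte-like cells they were Ccnd3 (−0.012 with limma, −0.24 with the block), Rb1 (−1.10 with the block, −0.11 with pool, −0.24 with sort day, −1.53 in pool L5), Cdkn1b (0.28 in pool L5) and Cdkn1a (0.040 in pool L6). In RGL cells they were Ccnd2 (−0.055 with sort day, −0.64 by marker score, −0.077 at Leiden resolution 0.5), Ccnd3 (0.012 with sort day, 0.053 in wells of at least 1000 genes, 0.034 in pool L6), Cdk4 (0.18 with limma) and Cdkn1b (0.33 with sort day, 0.087 by marker score, 0.21 at resolution 0.5, 1.13 in pool L6, 0.14 with pool, 0.39 with the block). The Ccnd3 share difference was 2.01 points after thinning. The cause was not tested. Leaving out oligodendrocyte-like wells that lack markers, and the limit of 1000 genes between classes, were chosen after seeing the data.

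Without single mice, sign changes gave ranges, in all cells, of −0.81 to 1.18 for Ccnd1, −0.15 to 0.50 for Ccnd2, −0.30 to 0.11 for Cdk4, −0.57 to 0.32 for Cdkn1a, −0.39 to 0.072 for Cdkn1b, −0.055 to 0.94 for Cdkn1c and −0.84 to 0.26 for Rb1. They were −0.29 to 0.70 for Ccnd3 and −1.56 to 1.09 for Rb1 in oligodendrocyte-like cells. In RGL cells they were −0.98 to 0.71 for Ccnd2, −0.69 to 0.51 for Ccnd3, −0.36 to 0.16 for Cdk4 and −0.40 to 1.12 for Cdkn1b. Share differences ran, in points, from −2.17 to 1.54 for Ccnd1, −6.04 to 0.26 for Cdk4, −2.90 to 1.00 for Cdk6, −5.04 to 1.57 for Cdkn1a, −5.20 to 2.78 for Cdkn1b, −2.0 to 0.51 for Cdkn1c and −0.24 to 0.47 for Mki67.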
